A study of Mus musculus with 36 samples.

Results

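The livers of 9 WT male mice were compared, 5 fed a high-fat diet (HFD) and 4 fed a normal chow diet (NCD), to describe what the diet changed in the liver transcriptome of mice without Cre. They were chosen by genotype, tissue and diet alone, out of 36 RNA-seq libraries made from the liver and the visceral white adipose tissue (visWAT) of 18 mice. The WT mice had a C57BL/6J background and loxP-flanked Mlkl alleles without Cre, so that the alleles were floxed but not recombined, and they were littermates of Mlkl Adi-KO mice, in which an adiponectin-driven Cre deletes Mlkl in mature adipocytes. Feeding lasted 16 weeks, and each library came from 1 mouse with no pooling. The study describes a last week in metabolic cages for groups of these sizes, and does not say that they were the sequenced mice. The 9 Mlkl Adi-KO livers of the same study, 5 on HFD and 4 on NCD, shared no mouse with the WT livers and were used beside them. The time of day and the feeding state at tissue collection are not given in the sources used here.

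The liver makes cholesterol through the mevalonate pathway, whose genes are driven by the transcription factor SREBP2 when the sterol content of the endoplasmic reticulum is low and fall silent when sterol is plentiful. It also makes fatty acids from carbohydrate, stores them as triglyceride in lipid droplets, burns them in mitochondria and peroxisomes under the control of PPARα, and clears foreign and endogenous compounds with cytochrome P450 enzymes and conjugating transferases. Many of these genes follow the circadian clock, in which BMAL1 and CLOCK switch on the Per, Cry and Nr1d1 genes through E-boxes, and REV-ERBα, the product of Nr1d1, switches off Bmal1 at a site that the RORs use to switch it on.

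Values are FPKM, the fragments of a gene divided by its length and by the size of the library, a scale on which levels of different genes can be set side by side. Reads on genes were 20946091 to 25530574 per WT liver, and 100% of the FPKM values corresponded to a whole number of reads. Each mouse is given in the order 165, 180, 182 and 183 for NCD and 154, 155, 161, 162 and 164 for HFD. Fold changes are HFD minus NCD on the log2(FPKM + 1) scale with their standard error, a scale that understates the change of low genes, and adjusted p-values are from limma over the 13330 genes with a mean of at least 0.5 FPKM. A gene was called when its adjusted p was under 0.05. The p-values measure the spread between mice. In a bulk tissue, fewer cells of a type and less RNA per cell cannot be told apart.

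The library labelled WT NCD mouse 182 lay apart from the other NCD livers. Of the 13330 genes, 436 (3.27%) were more than 2-fold outside the range of the other NCD livers in this mouse, compared to 29 to 38 genes in each of the others. Genes that are higher in male than in female liver were low in it, such as Elovl3 at 2.93 against 309.8 to 414 FPKM, and genes that are higher in female liver were high, such as Cyp2a4 at 267 against 0.227 to 0.626 FPKM. The Y-linked gene Ddx3y was present in this liver at 17.0 FPKM and Xist was at 0.00538 FPKM, as in the other mice. In liver, where Mlkl is not deleted in either genotype, Mlkl was 2.44, 2.18, 4.19 and 2.89 FPKM on NCD and 2.67, 2.62, 2.71, 2.99 and 2.63 FPKM on HFD. In visWAT of the same mice, Mlkl was 5.11, 4.63, 2.29 and 3.91 FPKM on NCD, and the value of mouse 182 went against its label, since it lay among the values of Mlkl Adi-KO mice on NCD (1.96 to 2.49 FPKM). Counts in the gene lists are therefore given with this library, and also without it where they moved. Over all genes tested without this library, 14.0% were called higher and 14.4% lower on HFD. The HFD liver of mouse 155 carried transcripts of other tissues, with the pancreatic protease Ctrb1 at 51.8 FPKM against 0 to 0.0622 in the other 8 livers and the duct keratin Krt19 at 36.2 FPKM. Every liver held the hepatocyte markers, with Alb at 35925 to 47072 FPKM on NCD and 25146 to 29459 FPKM on HFD.

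HFD changed genes in both directions. Higher on HFD were 1755 of 13330 genes (13.2%) and lower were 1619 (12.1%), of which 215 and 169 changed by at least 1 on the log2 scale. Without mouse 182 the counts were 1859 (14.0%) and 1914 (14.4%) of 13250 genes, and 3025 of the 3374 genes called with all mice were called in the same direction. Predicted genes and pseudogenes aside, the largest rises were in Orm3, an acute phase glycoprotein (log2 fold change 3.30), Cfd, the complement protease adipsin (3.05), Cidea, a lipid droplet protein (3.05), Hcn3, a cation channel (3.04), the serum amyloids Saa1 (2.91) and Saa2 (2.77), the metallothionein Mt1 (2.72) and C4a, a gene named for a complement component but annotated as a lncRNA (2.71). C4a was at 1.35 FPKM in NCD mouse 182 and 6.84 to 13.0 FPKM in the other NCD mice. Without mouse 182 its log2 fold change was 2.14. The largest falls were in Fabp5, a fatty acid binding protein (−4.75), Chrna4, a nicotinic receptor subunit (−3.73), Sqle (−3.31), Idi1 (−2.73) and Mvd (−2.70) of sterol synthesis, the transcription factor gene Zbtb16 (−2.91), lipoprotein lipase Lpl (−2.82) and Csad, which makes hypotaurine for taurine synthesis (−2.80). In 15 of these 16 genes no HFD mouse overlapped an NCD mouse, and the exception was Mt1. Over all genes tested, every HFD mouse was above every NCD mouse in 13.3% and below in 11.6%. The 16 genes were picked for the size of their change, which favours such a separation.

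The genes with the largest rises included the acute phase genes Orm3, Saa1 and Saa2 and genes of other kinds. Orm3 was at 0.938, 1.24, 0.312 and 1.02 FPKM on NCD and 13.4, 13.9, 22.5, 19.4 and 18.4 FPKM on HFD (log2 fold change 3.30 ± 0.19, adjusted p = 1.51e-05). Cfd, which is best known from adipocytes, was at 3.74, 0.695, 0.105 and 3.91 FPKM on NCD and 57.5, 25.7, 27.2, 14.2 and 5.57 FPKM on HFD (log2 fold change 3.05 ± 0.66, adjusted p = 0.00919). Hcn3 was at 5.28, 5.35, 2.82 and 6.30 FPKM on NCD and 38.1, 54.6, 36.5, 42.4 and 66.8 FPKM on HFD (log2 fold change 3.04 ± 0.23, adjusted p = 4.54e-05). In Orm3 and Hcn3 the HFD mice stood well above all NCD mice, and in Cfd HFD mouse 164 was close to the highest NCD mice. Mt1, which binds zinc and copper, was at 11.2, 8.44, 82.5 and 8.01 FPKM on NCD and 116, 67.2, 232, 132 and 72.1 FPKM on HFD (log2 fold change 2.72 ± 0.66, adjusted p = 0.016), where NCD mouse 182 lay among the HFD mice, and without it the log2 fold change was 3.48.

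Falls of similar size were found in Chrna4, Zbtb16 and Csad, beside those in sterol synthesis genes. Chrna4 was at 17.2, 9.25, 26.3 and 20.5 FPKM on NCD and 0.301, 0.308, 0.264, 0.187 and 0.881 FPKM on HFD (log2 fold change −3.73 ± 0.26, adjusted p = 3.89e-05), and mouse 164 was the highest HFD mouse. Zbtb16, which encodes the zinc finger factor PLZF, was at 18.7, 22.9, 16.4 and 21.9 FPKM on NCD and 3.03, 1.17, 1.64, 2.10 and 1.30 FPKM on HFD (log2 fold change −2.91 ± 0.18, adjusted p = 2.02e-05). Csad was at 121, 169, 183 and 186 FPKM on NCD and 25.5, 14.7, 20.8, 23.9 and 31.1 FPKM on HFD (log2 fold change −2.80 ± 0.20, adjusted p = 4.34e-05). In all 3 the lowest NCD mouse was several times above the highest HFD mouse.

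**Figure D1:**
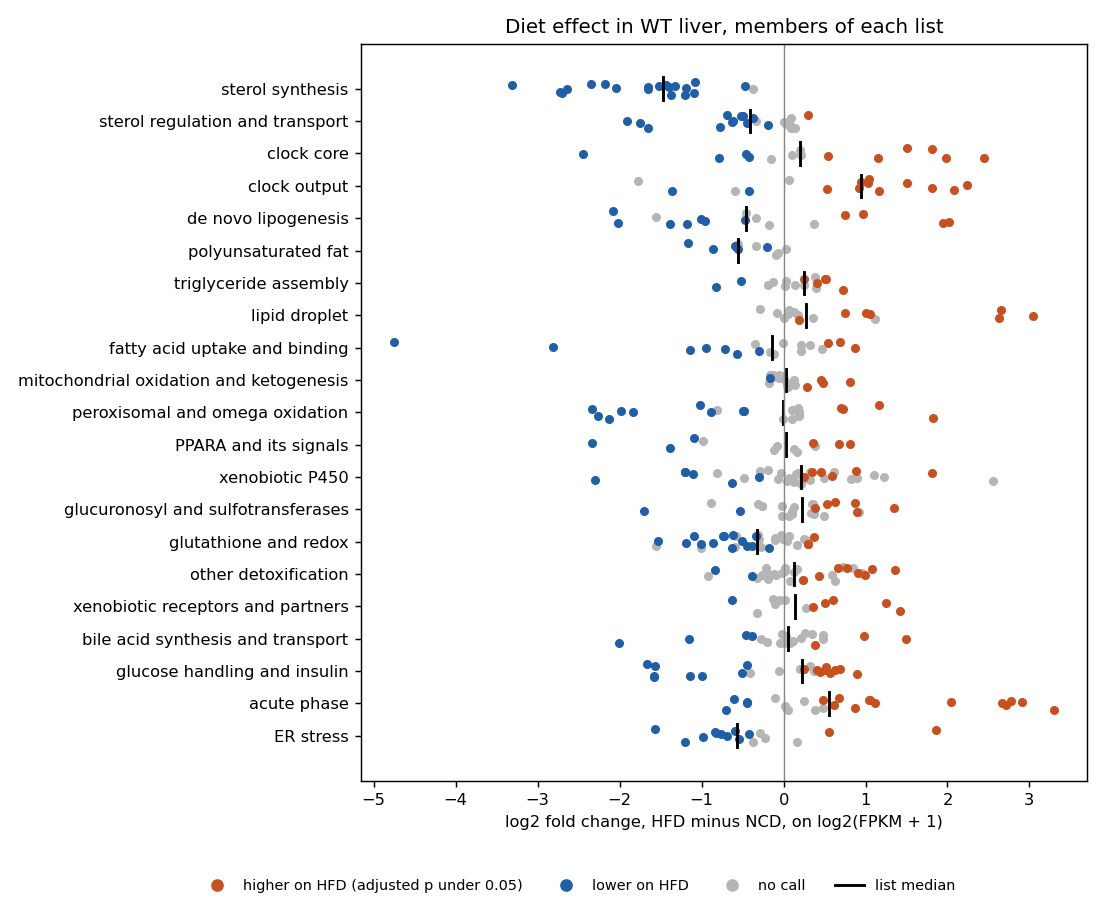
Diet effect on the members of gene lists in WT liver. Each point is 1 tested gene, the horizontal axis is its log2 fold change (HFD minus NCD, on log2(FPKM + 1)), colours mark genes called higher or lower, and the black bar is the list median. Sterol synthesis lies furthest to the left, with a median of −1.47.

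Of the gene lists examined, sterol synthesis had the largest median change. Of its 20 genes, all tested, 19 fell on HFD and none rose, where 12.1% of all genes tested were called lower, and the median log2 fold change was −1.47 against 0.00 over all genes. In the same 19 of the 20 genes every HFD mouse was below every NCD mouse, which was so for 11.6% of all genes tested. The number of genes called lower was also 19 without mouse 182. In the Mlkl Adi-KO livers 19 of the 20 fell as well, where 10.3% of all genes tested were called lower, with a median of −1.17.

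The first steps build mevalonate. Hmgcs1 (ENSMUSG00000093930, chr13:120151915-120169796, plus strand in GRCm39), which makes HMG-CoA, was at 107, 97.8, 178 and 97.7 FPKM on NCD and 15.7, 18.3, 15.4, 15.6 and 25.1 FPKM on HFD (log2 fold change −2.65 ± 0.20, adjusted p = 5.63e-05). Mouse 182 was the highest NCD mouse, and without it the log2 fold change was −2.44. The mevalonate and phosphomevalonate kinases followed, with log2 fold changes of −1.32 for Mvk and −2.18 for Pmvk. Mvd, the decarboxylase that yields isopentenyl pyrophosphate, was at 19.9, 22.7, 28.3 and 32.0 FPKM on NCD and 2.92, 3.07, 2.31, 2.36 and 5.11 FPKM on HFD (log2 fold change −2.70 ± 0.20, adjusted p = 4.34e-05). Idi1, the isomerase after it, was at 31.6, 37.5, 59.8 and 36.0 FPKM on NCD and 4.43, 5.40, 4.39, 5.40 and 6.55 FPKM on HFD (log2 fold change −2.73 ± 0.18, adjusted p = 2.79e-05). In both genes the 5 HFD mice were far below the 4 NCD mice, and mouse 164 was the highest HFD mouse.

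Genes of the steps from farnesyl units to cholesterol fell too. Sqle (ENSMUSG00000022351, chr15:59186926-59203041, plus strand), squalene epoxidase, a control point of the pathway, was at 22.8, 22.1, 29.4 and 28.5 FPKM on NCD and 1.78, 1.72, 0.866, 1.71 and 2.52 FPKM on HFD (log2 fold change −3.31 ± 0.17, adjusted p = 7.93e-06). The NCD mean was 14.9 times the HFD mean. Cyp51, which removes the 14α-methyl group of lanosterol, was at 60.6, 49.9, 85.9 and 56.0 FPKM on NCD and 9.84, 11.1, 9.95, 8.85 and 19.0 FPKM on HFD (log2 fold change −2.35 ± 0.22, adjusted p = 0.000147), and mouse 164 was the highest HFD mouse in this gene and in most genes of the pathway. Nsdhl, which takes part in C4 demethylation, fell by 2.05 on the log2 scale and the isomerase gene Ebp by 0.47, and the genes Fdps, Fdft1, Lss, Tm7sf2, Msmo1, Hsd17b7, Sc5d and Dhcr7 lay between these values.

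**Figure D2:**
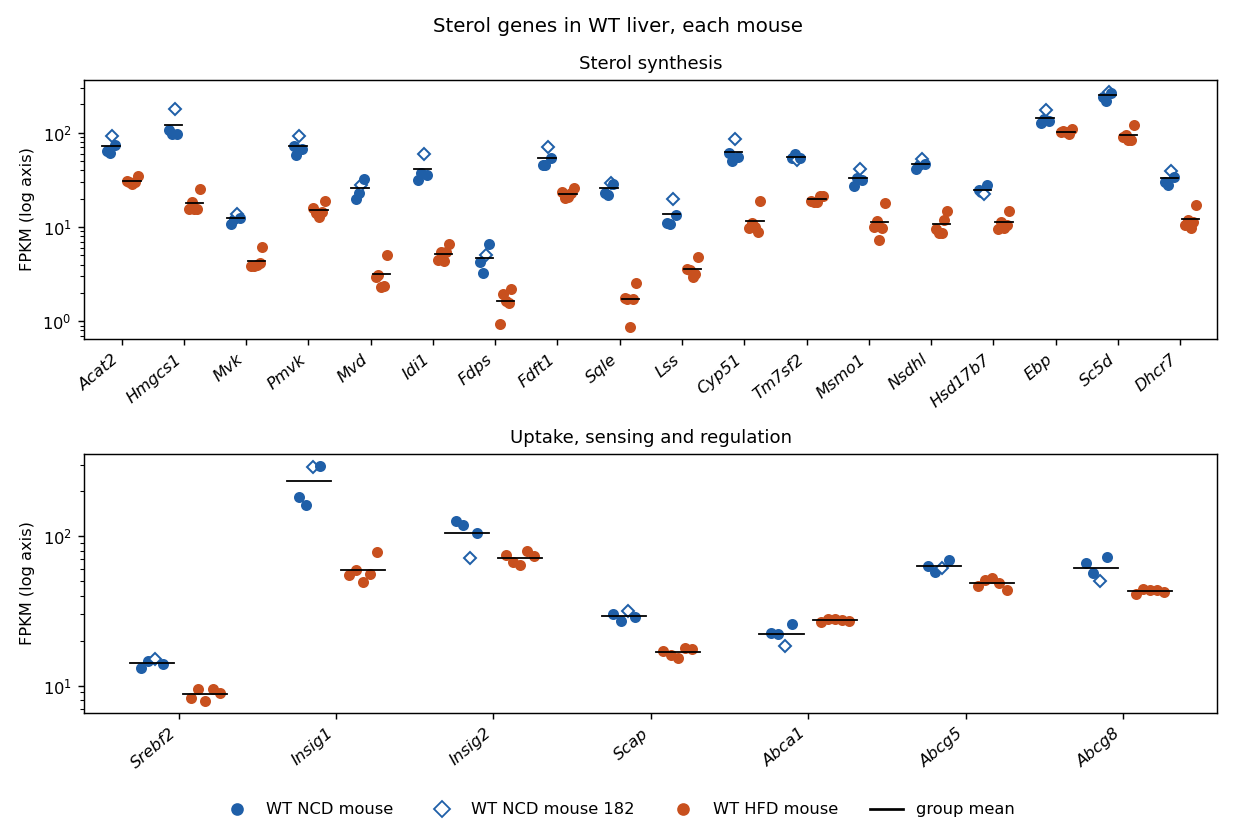
Sterol genes in WT liver. Each point is 1 mouse, the vertical axes give FPKM on a log scale, blue marks NCD, orange HFD, the open diamond NCD mouse 182, and the bar is the group mean. The HFD points lie below all NCD points in every gene of the upper panel.

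Among the genes that sense, import and export sterol, 12 of 20 fell and 1 rose (median −0.41). The shares over all genes were 12.1% lower and 13.2% higher. Srebf2, which encodes SREBP2, was at 13.2, 14.6, 15.1 and 13.9 FPKM on NCD and 8.27, 9.54, 7.86, 9.43 and 8.98 FPKM on HFD (log2 fold change −0.63 ± 0.07, adjusted p = 0.000273). Scap, its escort to the Golgi, fell by a similar size (log2 fold change −0.78 ± 0.06, adjusted p = 7.96e-05). Insig1, which holds SCAP back in the endoplasmic reticulum and is itself an SREBP target, was at 181, 162, 291 and 296 FPKM on NCD and 55.2, 59.6, 49.1, 55.9 and 78.2 FPKM on HFD (log2 fold change −1.91 ± 0.21, adjusted p = 0.000298). These 3 genes had no overlap between diets. The canalicular sterol exporters Abcg5 (−0.37) and Abcg8 (−0.50) and the cholesterol esterifying enzyme Soat2 (−0.69) fell, and Abca1, which loads cholesterol onto HDL, was the gene that rose (log2 fold change 0.30 ± 0.08, adjusted p = 0.0251), a call lost without mouse 155, 161, 162 or 180.

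A sterol regulatory element of the letters TCACNCCAC, searched on both strands from 250 bases before to 50 after the start of RefSeq genes in GRCm38.p6, was in 1.24% of 32851 promoters. Of the sterol synthesis genes, 15 had an entry, with 18 promoters, and the letters were in 1 of them, that of Hmgcs1. The stretch is printed because it belongs to a gene of the early steps whose level fell, and the capitals mark the match, which lies 137 to 129 bases before the start (chr13:119690144-119690292, plus strand).
Hmgcs1: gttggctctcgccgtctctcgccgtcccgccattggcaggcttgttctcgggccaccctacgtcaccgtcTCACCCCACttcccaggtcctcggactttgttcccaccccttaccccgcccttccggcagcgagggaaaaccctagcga
No match says only that these letters are not in this window.

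The clock genes moved in opposite directions by their place in the loop. Of 15 core clock genes 14 were tested, of which 6 rose and 4 fell, where 13.2% of all genes were called higher and 12.1% lower. Bmal1 (Arntl in the files, ENSMUSG00000055116, chr7:112806672-112913333, plus strand), the activator that pairs with CLOCK, was at 1.26, 1.65, 2.53 and 1.20 FPKM on NCD and 0.498, 0.503, 0.407, 0.558 and 0.603 FPKM on HFD (log2 fold change −0.79 ± 0.14, adjusted p = 0.00309). Clock was at 5.30, 5.57, 5.29 and 5.01 FPKM on NCD and 3.39, 3.69, 3.60, 3.59 and 3.65 FPKM on HFD (log2 fold change −0.46 ± 0.05, adjusted p = 0.000223). Npas2, a relative of Clock, was at 0.479, 0.502, 0.886 and 0.212 FPKM on NCD and 0.0817, 0.111, 0.0107, 0.0393 and 0.0456 FPKM on HFD, under the level at which genes were tested. In all 3 activators every HFD mouse was below every NCD mouse.

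Nr1d1, which encodes the repressor REV-ERBα, was at 64.2, 64.4, 50.5 and 79.9 FPKM on NCD and 11.4, 10.6, 10.6, 12.7 and 9.27 FPKM on HFD (log2 fold change −2.45 ± 0.13, adjusted p = 7.94e-06), the largest fall among clock genes. Its relative Nr1d2 was at 22.8, 19.3, 20.9 and 25.4 FPKM on NCD and 24.1, 24.3, 28.0, 26.5 and 25.2 FPKM on HFD and was not called (log2 fold change 0.21 ± 0.08, adjusted p = 0.0878). The diets were separated by a wide gap in Nr1d1 and overlapped in Nr1d2. Rora, which encodes an activator at the same sites, fell (log2 fold change −0.43 ± 0.10, adjusted p = 0.0122).

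Per2, Per3, Cry1, Cry2 and Ciart, which encode repressors of the BMAL1 and CLOCK pair, rose. Per2 (ENSMUSG00000055866, chr1:91343704-91387046, minus strand) was at 3.70, 3.68, 2.18 and 6.32 FPKM on NCD and 18.2, 17.1, 18.8, 17.8 and 17.3 FPKM on HFD (log2 fold change 1.98 ± 0.19, adjusted p = 0.000173). Per3 was at 1.49, 0.956, 1.05 and 2.71 FPKM on NCD and 7.13, 7.98, 8.74, 7.43 and 7.01 FPKM on HFD (log2 fold change 1.81 ± 0.17, adjusted p = 0.000162). In both, NCD mouse 183 was the highest of its group and still below every HFD mouse. Cry1 was at 3.22, 3.47, 2.40 and 2.65 FPKM on NCD and 7.16, 8.21, 8.20, 7.88 and 6.92 FPKM on HFD (log2 fold change 1.15 ± 0.09, adjusted p = 6.32e-05), and Cry2 (log2 fold change 0.54 ± 0.09, adjusted p = 0.00229) and the repressor gene Ciart (adjusted p = 0.00462) rose as well. Per1 was at 12.9, 14.4, 8.20 and 13.8 FPKM on NCD and 16.0, 13.3, 15.9, 12.2 and 13.2 FPKM on HFD with overlapping groups (log2 fold change 0.20 ± 0.15, adjusted p = 0.377). Bhlhe40 and Bhlhe41, which encode the repressors DEC1 and DEC2, had adjusted p-values of 0.466 and 0.567.

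Of 15 genes known as clock outputs or as rhythmic in liver, 10 rose and 2 fell (median 0.94). The shares over all genes were 13.2% higher and 12.1% lower. Dbp, an activator of D-boxes, was at 18.3, 11.5, 9.12 and 29.8 FPKM on NCD and 28.1, 29.3, 34.3, 38.0 and 36.7 FPKM on HFD (log2 fold change 1.04 ± 0.29, adjusted p = 0.0257), and NCD mouse 183 exceeded HFD mice 154 and 155. The Dbp call was lost when any of mice 161, 162, 164 or 180 was left out. Its relatives Tef (log2 fold change 1.04 ± 0.16, adjusted p = 0.00204) and Hlf (log2 fold change 0.92 ± 0.21, adjusted p = 0.012) rose, and Nfil3, which competes with them at D-boxes, fell (log2 fold change −0.42 ± 0.12, adjusted p = 0.0278). Other rises were in Wee1, a mitotic kinase gene with an E-box driven rhythm (log2 fold change 2.08 ± 0.15, adjusted p = 4.41e-05), the ubiquitin protease gene Usp2 (log2 fold change 1.80 ± 0.24, adjusted p = 0.000727) and Nampt of NAD synthesis (log2 fold change 1.16 ± 0.09, adjusted p = 6.04e-05). Alas1, the first enzyme of heme synthesis, was at 65.7, 68.4, 32.0 and 86.2 FPKM on NCD and 307, 287, 285, 266 and 280.3 FPKM on HFD (log2 fold change 2.24 ± 0.24, adjusted p = 0.000268). Elovl3, a fatty acid elongase that is rhythmic and higher in males, was at 309.8, 414, 2.93 and 316 FPKM on NCD and 37.3, 28.1, 23.3, 32.9 and 40.6 FPKM on HFD. It was not called with mouse 182 (adjusted p = 0.33), the lowest of all 9 mice, and fell without it (log2 fold change −3.39 ± 0.18, adjusted p = 1.23e-05). Cdkn1a, a cell cycle inhibitor and REV-ERBα target, fell (log2 fold change −1.36 ± 0.36, adjusted p = 0.0217). The Nfil3 call was lost without mouse 155, 162, 164, 180 or 183 and the Cdkn1a call without mouse 164 or 180. The number of falls among these genes was 1 without mouse 155, 162 or 183, 0 without mouse 164 or 180 and 4 without mouse 182, where Elovl3 and Tsc22d3 were added. The sources used here do not give the clock time of collection, and its part in these differences was not tested.

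**Figure D3:**
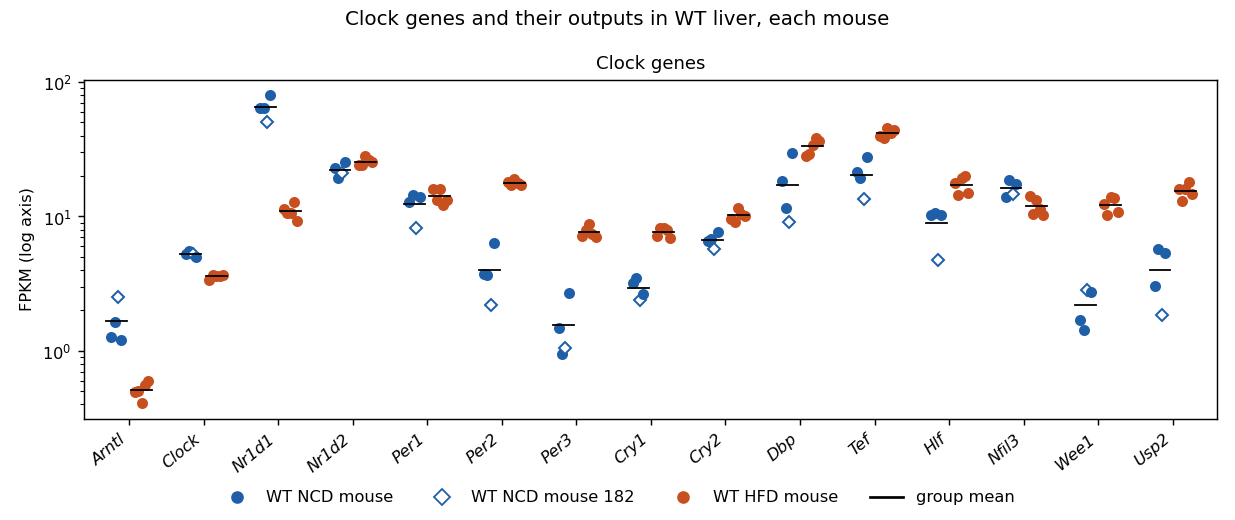
Clock genes and their outputs in WT liver. Each point is 1 mouse, the vertical axis gives FPKM on a log scale, with NCD in blue, mouse 182 as an open diamond, HFD in orange and the group mean as a bar. Arntl, Clock and Nr1d1 are lower and Per2, Per3 and Cry1 higher in every HFD mouse.

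The promoters of 3 clock genes that moved are shown for the elements they carry. The E-box CACGTG was in 7.15% of all promoters and in 4 of 16 promoters of core clock genes (25.0%), those of Bhlhe41, Ciart, Cry1 and Per1. The ROR half-site TAGGTCA was in 2.61% of all promoters and, of the core clock genes, in that of Arntl. The D-box TTATGTAA or TTACGTAA was in 1.06% of all promoters and, of the core clock genes, in that of Per3. Each was searched on both strands in the same window of RefSeq genes in GRCm38.p6, for 12 of the 15 core clock genes that had an entry. Capitals mark the matches, 30 to 36 bases after the start in Arntl (chr7:113207531-113207557, plus strand), 60 to 55 bases before it in Cry1 (chr10:85185055-85185184, minus strand), and 205 to 198 and 158 to 151 bases before it in Per3 (chr4:151044746-151044915, minus strand).
Arntl: aggcagaaagTAGGTCAgggacggagg
Cry1: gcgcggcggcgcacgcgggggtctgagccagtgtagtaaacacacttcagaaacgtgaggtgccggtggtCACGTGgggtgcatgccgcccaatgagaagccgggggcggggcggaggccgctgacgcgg
Per3: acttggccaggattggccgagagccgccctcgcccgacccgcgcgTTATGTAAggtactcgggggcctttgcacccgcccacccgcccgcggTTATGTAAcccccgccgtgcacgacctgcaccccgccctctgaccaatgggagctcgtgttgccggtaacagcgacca
These 3 genes were chosen because they moved. Of the 4 core clock genes with an E-box, Ciart and Cry1 rose and Per1 and Bhlhe41 were not called. A match is a description of the letters and not a measured binding site.

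Genes of fatty acid synthesis moved both ways. Of 16 genes, 4 rose and 7 fell (median −0.46), where 13.2% of all genes were called higher and 12.1% lower. Srebf1, which encodes the lipogenic factor SREBP1, was at 68.5, 68.7, 50.8 and 96.6 FPKM on NCD and 108, 159, 143, 128 and 154 FPKM on HFD (log2 fold change 0.97 ± 0.18, adjusted p = 0.0041), with no overlap. Mlxipl, which encodes the glucose sensing factor ChREBP, was at 88.9, 95.1, 51.5 and 94.7 FPKM on NCD and 114, 97.7, 121, 92.1 and 96.0 FPKM on HFD and was not called (log2 fold change 0.37 ± 0.18, adjusted p = 0.172). Fasn, fatty acid synthase, was at 221, 158, 127 and 324 FPKM on NCD and 77.8, 120.4, 94.9, 74.7 and 147 FPKM on HFD (log2 fold change −0.96 ± 0.29, adjusted p = 0.0378), but HFD mouse 164 was above NCD mouse 182. The Fasn call was lost when any of mice 154, 155, 161, 162, 165 or 183 was left out, and without mouse 182 the adjusted p was 0.0137. Acaca, acetyl-CoA carboxylase 1, was at 13.9, 10.6, 12.0 and 13.8 FPKM on NCD and 12.1, 10.8, 12.3, 9.37 and 10.4 FPKM on HFD (log2 fold change −0.18 ± 0.10, adjusted p = 0.233). Scd1, the desaturase that makes oleate, was at 7348, 5724, 8039.9 and 9025 FPKM on NCD and 2565, 3206, 2625, 2272 and 3788 FPKM on HFD (log2 fold change −1.39 ± 0.18, adjusted p = 0.000679), with no overlap.

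Enzymes that supply acetyl-CoA and NADPH fell, while 3 further targets of carbohydrate and insulin signals rose. Acss2, which activates acetate, fell by the most (log2 fold change −2.08 ± 0.21, adjusted p = 0.000186), and Me1, malic enzyme, fell by 1.17 on the log2 scale. Acly, ATP-citrate lyase, fell as well (adjusted p = 0.0143). Pnpla3, a lipid droplet hydrolase induced by SREBP1, was at 6.36, 2.90, 5.21 and 14.0 FPKM on NCD and 0.686, 2.34, 0.264, 0.162 and 1.13 FPKM on HFD (log2 fold change −2.02 ± 0.41, adjusted p = 0.00704). Pklr, the liver pyruvate kinase gene, was at 98.3, 76.6, 39.3 and 103 FPKM on NCD and 264, 299, 294, 332 and 333 FPKM on HFD (log2 fold change 2.01 ± 0.25, adjusted p = 0.000576), and Thrsp, a lipogenic regulator, rose by 1.95. The elongase gene Elovl6 rose (log2 fold change 0.75 ± 0.21, adjusted p = 0.0267), a call lost without mouse 154, 155, 161, 164 or 180. Among 11 tested genes of polyunsaturated fat synthesis and chain remodelling 5 fell, 4 without mouse 182, led by Elovl5 (−1.17) and Elovl2 (−0.87), and none rose, while the desaturase genes Fads1 and Fads2 had adjusted p-values of 0.0772 and 0.905. Over all genes 12.1% were called lower.

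Uptake and binding of fatty acids held the largest fall among the named genes. Fabp5 (ENSMUSG00000027533, chr3:10077608-10081667, plus strand), a cytosolic fatty acid chaperone, was at 77.0, 64.9, 59.8 and 76.8 FPKM on NCD and 2.18, 1.42, 1.39, 1.35 and 1.79 FPKM on HFD (log2 fold change −4.75 ± 0.11, adjusted p = 7.44e-08), a ratio of means of 42.8. Lpl, which hydrolyses the triglyceride of lipoproteins, was at 8.80, 9.61, 39.3 and 7.84 FPKM on NCD and 1.07, 1.61, 0.760, 0.718 and 0.808 FPKM on HFD (log2 fold change −2.82 ± 0.41, adjusted p = 0.00127). Mouse 182 was far above the other NCD mice in Lpl, and without it the log2 fold change was −2.30. Of the 18 genes of this group 3 rose and 7 fell, and without mouse 182 these counts were 4 and 9. Over all genes, 13.2% were called higher and 12.1% lower, and 14.0% and 14.4% without mouse 182. The fatty acid translocase gene Cd36 was at 68.1, 50.2, 76.4 and 59.1 FPKM on NCD and 67.1, 55.3, 60.5, 64.8 and 64.2 FPKM on HFD, with overlapping groups (log2 fold change −0.01 ± 0.11, adjusted p = 0.961). Pparg, the adipogenic nuclear receptor, was at 6.32, 5.12, 6.55 and 5.33 FPKM on NCD and 12.4, 10.4, 8.79, 11.4 and 15.0 FPKM on HFD (log2 fold change 0.87 ± 0.13, adjusted p = 0.00182), with no overlap. The acyl-CoA synthetase gene Acsl5 (−1.15) and the acyl-CoA binding protein gene Dbi (−0.94) fell, and the synthetase gene Acsl1 rose (0.54).

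Of 16 tested lipid droplet genes 7 rose and none fell, and without mouse 182 7 rose and 1 fell. Over all genes 13.2% were called higher and 12.1% lower. In the same 7 of the 16 tested genes every HFD mouse was above every NCD mouse, which was so for 13.3% of all genes tested. Cidea, which promotes droplet fusion, was at 3.31, 0.0479, 0.909 and 10.9 FPKM on NCD and 30.9, 17.2, 17.8, 29.6 and 37.0 FPKM on HFD (log2 fold change 3.05 ± 0.62, adjusted p = 0.0068). Cidec, its relative, was at 14.6, 5.35, 10.2 and 21.8 FPKM on NCD and 96.0, 59.1, 63.8, 90.6 and 81.3 FPKM on HFD (log2 fold change 2.63 ± 0.33, adjusted p = 0.000587). Plin4, a droplet coat protein gene, was at 4.02, 4.07, 2.01 and 3.57 FPKM on NCD and 27.2, 19.2, 27.9, 37.7 and 22.9 FPKM on HFD (log2 fold change 2.66 ± 0.21, adjusted p = 5.93e-05). The NCD mice were widely spread in Cidea. The most abundant coat protein gene, Plin2, was at 246, 206, 201 and 244 FPKM on NCD and 206, 195, 206, 231 and 223 FPKM on HFD (log2 fold change −0.08 ± 0.08, adjusted p = 0.546). Cideb and Fitm2 rose by 0.19 and 0.75 on the log2 scale, and the Cideb call was lost without mouse 154, 155, 162, 164, 165 or 183. G0s2, an inhibitor of the triglyceride lipase ATGL, rose (log2 fold change 1.05 ± 0.19, adjusted p = 0.00395), as did the hormone-sensitive lipase gene Lipe (adjusted p = 0.00107). In the Mlkl Adi-KO livers 3 of the 16 were higher, where 11.9% of all genes tested were called higher, and Cidea, Cidec and Plin4 had adjusted p-values of 0.2, 0.18 and 0.0759. All 7 genes called in WT liver had the same direction there, with a log2 fold change of 1.62 for Cidea. The interaction of diet and genotype was called for 0 of the lipid droplet genes (adjusted p = 0.965 for Cidea). Of the adipocyte markers, Adipoq was at 0.0438, 0, 0.0349 and 0.0817 FPKM on NCD and 0.0405, 2.70, 0, 0 and 0 FPKM on HFD, with mouse 155 the highest. Only 3 of the 7 adipocyte markers were high enough to be tested, and of these Cfd (3.05) and Car3 (0.82) rose. The part of adipocyte transcripts in the rises of lipid droplet genes was not tested.

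In triglyceride assembly 5 of 15 genes rose and 2 fell, where 13.2% of all genes were called higher and 12.1% lower. Dgat2, which adds the last acyl chain, rose (log2 fold change 0.72 ± 0.16, adjusted p = 0.0103), as did the acyltransferase genes Gpat4 (0.50) and Agpat1 (0.40), while Gpam, which encodes the mitochondrial acyltransferase GPAT1, fell (log2 fold change −0.82 ± 0.21, adjusted p = 0.0192). Mogat1, a monoacylglycerol acyltransferase gene, was at 4.11, 2.88, 1.86 and 3.76 FPKM on NCD and 3.84, 4.59, 3.54, 4.02 and 6.14 FPKM on HFD with overlapping groups (log2 fold change 0.40 ± 0.19, adjusted p = 0.149). The Gpam call was lost without mouse 165. The number of rises was 3 when any of mice 154, 161, 162, 164, 165, 180 or 183 was left out and 4 without mouse 182, and that of falls 1 when any mouse but 161 was.

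**Figure D4:**
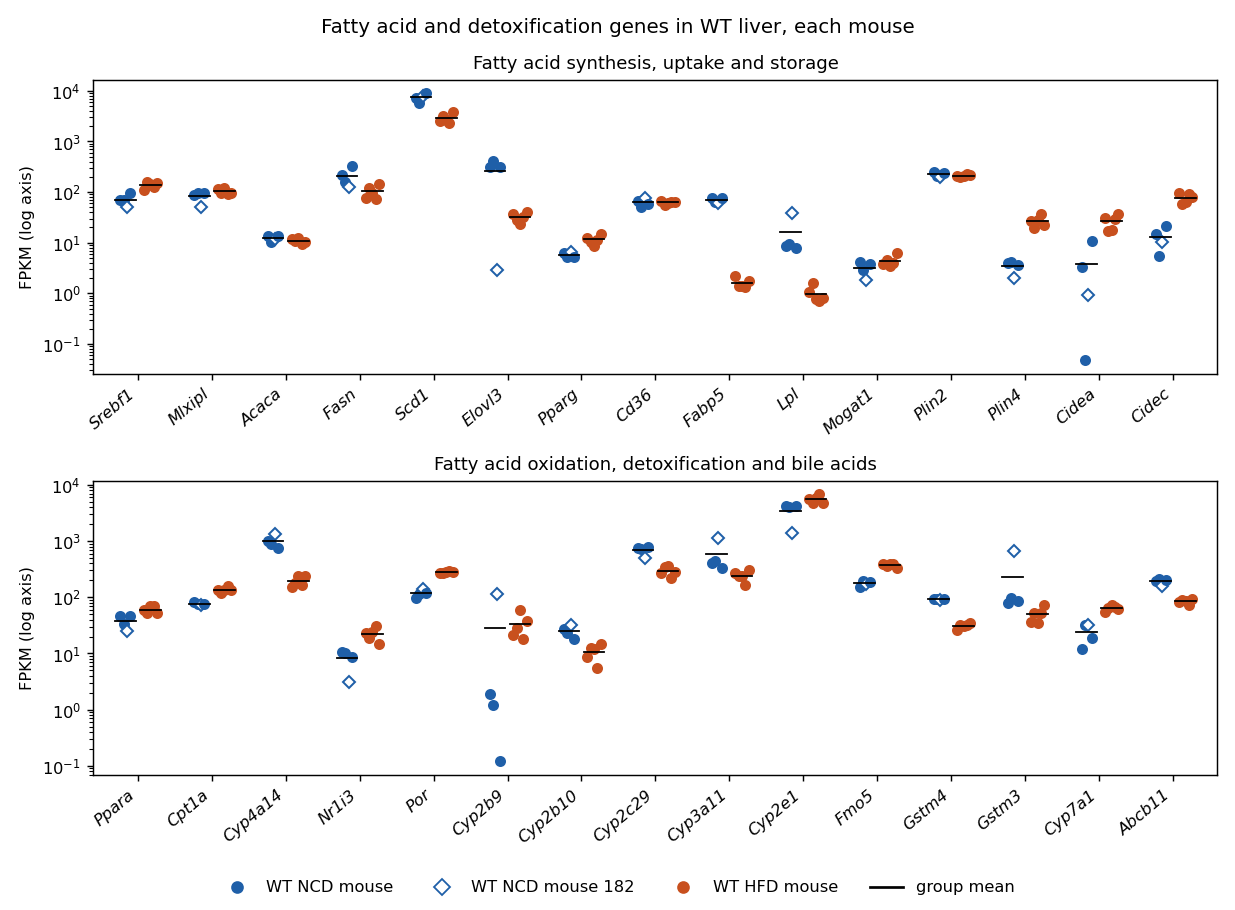
Fatty acid, detoxification and bile acid genes in WT liver. Each point is 1 mouse, the vertical axes give FPKM on a log scale, blue is NCD with mouse 182 as an open diamond, orange is HFD, and the bar is the group mean. Fabp5, Lpl and Cyp4a14 are lower and Cidec, Plin4 and Por higher in every HFD mouse, while mouse 182 lies far from its group in Elovl3, Cyp2b9 and Gstm3.

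Oxidation of fatty acids did not move as 1 group. Of 20 mitochondrial and ketogenic genes 4 rose and 1, Etfa, fell, with a median of 0.03, where 13.2% of all genes were called higher and 12.1% lower. The number of falls was 0 without any of mice 154, 155, 161, 164, 165, 180 or 183, 2 without mouse 162 and 3 without mouse 182. Ppara, the fasting regulator, was at 46.9, 34.0, 25.2 and 46.6 FPKM on NCD and 58.5, 52.0, 71.2, 68.8 and 51.8 FPKM on HFD (log2 fold change 0.68 ± 0.19, adjusted p = 0.0264), with no overlap, and the call was lost when any of mice 154, 161, 162 or 180 was left out. Cpt1a, the gate of fatty acid entry into mitochondria, was at 82.9, 75.6, 72.8 and 75.2 FPKM on NCD and 134, 119.6, 136, 157 and 132 FPKM on HFD (log2 fold change 0.81 ± 0.08, adjusted p = 0.000164), with no overlap.

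Peroxisomal and omega oxidation genes fell in 9 of 21 cases and rose in 4, and without mouse 182 the number of falls was 10. The shares over all genes were 12.1% lower and 13.2% higher. Cyp4a14, an omega hydroxylase and a strong PPARα target, was at 989.5, 888, 1362 and 763 FPKM on NCD and 155, 177, 239, 163 and 243 FPKM on HFD (log2 fold change −2.34 ± 0.20, adjusted p = 8.23e-05). Ehhadh, the bifunctional enzyme of peroxisomal β-oxidation, was at 597, 405, 1019 and 468 FPKM on NCD and 144, 159, 138, 133 and 160.1 FPKM on HFD (log2 fold change −1.98 ± 0.23, adjusted p = 0.000424). In both every HFD mouse was below every NCD mouse. Cyp4a31 (−2.26) and the near-identical pair Cyp4a12a (−1.83) and Cyp4a12b (−2.12) fell too, the Cyp4a12a call being lost without mouse 161, 162, 164, 165, 180 or 183, and reads of such close relatives may be split between them in a way that is not stated. The thioesterase genes Acot3 (1.83) and Acot4 (1.16) rose, the Acot3 call being lost without mouse 180 or 183. Of 12 genes of the PPARα signal 3 rose and 3 fell, the falls including Pdk4, the kinase that shuts off pyruvate oxidation (5.54, 4.56, 11.6 and 5.91 FPKM on NCD and 2.45, 1.66, 1.61, 1.63 and 2.04 FPKM on HFD, log2 fold change −1.39 ± 0.21, adjusted p = 0.00174), and the coactivator gene Ppargc1a (log2 fold change −1.09 ± 0.11, adjusted p = 0.000228). Fgf21, the fasting hormone, was at 12.9, 9.43, 71.9 and 10.8 FPKM on NCD and 9.46, 6.28, 10.2, 8.11 and 9.19 FPKM on HFD and was not called (log2 fold change −0.98 ± 0.51, adjusted p = 0.197). Mouse 182 was far above all others in Fgf21, and without it the log2 fold change was −0.33 (adjusted p = 0.129).

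Counts of detoxification genes moved with mouse 182. Of 35 tested P450 genes 6 rose and 6 fell with all mice, and 15 of 34 rose and 7 fell without mouse 182. Over all genes, 13.2% were called higher and 12.1% lower with all mice, and 14.0% and 14.4% without mouse 182. The number of falls was 3 without mouse 165. Por, the reductase that passes electrons to all microsomal P450 enzymes, was at 98.9, 114, 138 and 118 FPKM on NCD and 269.9, 267, 287, 292 and 278 FPKM on HFD (log2 fold change 1.25 ± 0.09, adjusted p = 3.89e-05). Nr1i3, which encodes the xenobiotic receptor CAR, was at 10.7, 10.1, 3.12 and 8.74 FPKM on NCD and 22.7, 18.7, 24.5, 31.0 and 15.0 FPKM on HFD (log2 fold change 1.42 ± 0.32, adjusted p = 0.0109). Both were without overlap. Nr1i2, which encodes PXR, was at 47.2, 50.8, 41.5 and 44.0 FPKM on NCD and 55.5, 49.1, 59.6, 63.5 and 50.05 FPKM on HFD (log2 fold change 0.27 ± 0.09, adjusted p = 0.057). Of 12 tested receptors and partners 5 rose and 1 fell, the fall being Ahr, the dioxin receptor gene (log2 fold change −0.63 ± 0.13, adjusted p = 0.00649), and the number of rises was 3 without mouse 162 and that of falls 2 without mouse 182.

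Cyp2b10, the classical CAR target, was at 26.95, 23.2, 32.3 and 18.3 FPKM on NCD and 8.63, 12.6, 11.8, 5.58 and 14.7 FPKM on HFD (log2 fold change −1.20 ± 0.25, adjusted p = 0.00843), with no overlap. Cyp2c29 was at 766, 709.5, 498 and 778 FPKM on NCD and 269, 352, 361, 224 and 282 FPKM on HFD (log2 fold change −1.21 ± 0.18, adjusted p = 0.00127), also with no overlap. Cyp3a11, a PXR target, was at 401, 445, 1152 and 331 FPKM on NCD and 267, 239, 236, 168 and 300.4 FPKM on HFD (log2 fold change −1.10 ± 0.34, adjusted p = 0.0398), and its call was lost when any mouse other than 182 or 183 was left out. Cyp1a2, the caffeine metabolising enzyme, was at 291, 334, 164 and 285 FPKM on NCD and 166, 179, 166, 184 and 144 FPKM on HFD (log2 fold change −0.63 ± 0.19, adjusted p = 0.0353), with NCD mouse 182 at the level of the HFD mice and no call when any mouse but 182 was left out. Without mouse 182 the adjusted p was 0.0169 for Cyp3a11 and 0.000263 for Cyp1a2. Genes of the Cyp2c family share long stretches of sequence, so their values are uncertain.

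Other P450 genes were higher on HFD once mouse 182 was left out. Cyp2b9, which is high in female liver, was at 1.87, 1.20, 112 and 0.120 FPKM on NCD and 21.7, 28.9, 59.0, 17.98 and 38.2 FPKM on HFD, with an adjusted p of 0.145 over all mice and a log2 fold change of 4.03 and an adjusted p of 0.000242 without mouse 182. Cyp2e1, the ethanol oxidising enzyme, was at 4187, 4088, 1366 and 4196 FPKM on NCD and 5685, 4802, 5948, 6829.6 and 4727 FPKM on HFD, with adjusted p-values of 0.099 with and 0.0312 without that mouse. In both genes the 3 other NCD mice were below every HFD mouse. Cyp2d40 rose with all mice (log2 fold change 1.82 ± 0.31, adjusted p = 0.00294), as did Cyp3a13 (log2 fold change 0.59 ± 0.07, adjusted p = 0.000481).

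Of 34 tested genes of glutathione and redox metabolism, which are transferases and other enzymes, 14 fell and 3 rose (median −0.33), and without mouse 182 these counts were 16 and 4. Over all genes, 12.1% were called lower and 13.2% higher, and 14.4% and 14.0% without mouse 182. The rises included the transferase genes Gstz1 (0.37) and Gstk1 (0.30). Gstm1 was at 2494, 2168, 2510.2 and 2517 FPKM on NCD and 1043, 1002, 1065, 1237 and 1374 FPKM on HFD (log2 fold change −1.09 ± 0.11, adjusted p = 0.00018). Gstm4 was at 91.4, 92.1, 89.1 and 93.6 FPKM on NCD and 26.1, 32.3, 30.4, 31.6 and 35.5 FPKM on HFD (log2 fold change −1.53 ± 0.08, adjusted p = 7.93e-06). Both were without overlap, and NCD mouse 180 was the lowest of its group in Gstm1. Gstm3 was at 79.4, 95.5, 675 and 84.2 FPKM on NCD and 35.8, 53.1, 35.1, 53.1 and 74.0 FPKM on HFD, with an adjusted p of 0.0871 over all mice and 0.0261 without mouse 182, which was far above its group. Gstp1 was at 666, 826, 364 and 758 FPKM on NCD and 416, 442, 389, 429 and 412 FPKM on HFD, with an adjusted p of 0.0716 over all mice and 0.000128 without mouse 182, which was below all HFD mice. The NRF2 targets Gsta1 and Nqo1, which encodes a quinone reductase, were not called. Gsta1 was at 3.67, 2.12, 45.5 and 2.77 FPKM on NCD and 4.39, 7.31, 1.44, 4.39 and 2.91 FPKM on HFD (adjusted p = 0.606). Nqo1 was at 7.86, 7.60, 15.0 and 6.65 FPKM on NCD and 5.76, 6.73, 7.07, 7.67 and 8.55 FPKM on HFD (adjusted p = 0.353). The glutathione synthesis gene Gclc (log2 fold change −0.73 ± 0.11, adjusted p = 0.00181) and the reductase gene Gsr (log2 fold change −0.63 ± 0.05, adjusted p = 4.24e-05) fell. Members of the Gstm and Gstp families are near-identical in parts, which makes the split of reads between them uncertain.

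Of 24 tested glucuronosyl and sulfotransferase genes 6 rose and 2 fell, where 13.2% of all genes were called higher and 12.1% lower. The number of falls was 1 without any of mice 154, 155, 161, 162, 164 or 180, and without mouse 182 the counts were 5 and 4. The largest changes were in Ugt1a5 (log2 fold change −1.70 ± 0.12, adjusted p = 3.89e-05) among the falls and Sult1c2 (log2 fold change 1.35 ± 0.33, adjusted p = 0.0153), Sult1d1 (0.90) and Sult1b1 (0.87) among the rises. HFD mouse 155 was at 17.0 FPKM in Sult1c2, above 5.57 FPKM in the next mouse. The Ugt1a genes share exons, so that their reads may not be told apart. Among 31 other detoxification genes 8 rose and 2 fell, without mouse 182 11 rose and 6 fell, and the number of falls was 1 without any of mice 154, 155, 161, 164, 165 or 183. Over all genes, 14.0% were called higher and 14.4% lower without mouse 182. Fmo5, a flavin monooxygenase, was at 154, 193, 175 and 188 FPKM on NCD and 396, 367, 393, 389 and 337 FPKM on HFD (log2 fold change 1.08 ± 0.08, adjusted p = 4.73e-05), with no overlap, and Fmo2 (1.36) and the carboxylesterase gene Ces1b (adjusted p = 0.00502) rose as well, while Ces2a fell (log2 fold change −0.83 ± 0.17, adjusted p = 0.0065).

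Among bile acid genes, those of the first step and of the exporter changed. Cyp7a1, the rate-limiting enzyme of bile acid synthesis from cholesterol, was at 11.9, 32.1, 32.7 and 18.5 FPKM on NCD and 54.0, 64.0, 71.5, 68.3 and 61.7 FPKM on HFD (log2 fold change 1.49 ± 0.26, adjusted p = 0.00361). Nr0b2, which encodes its repressor SHP, was at 51.9, 61.8, 44.9 and 66.5 FPKM on NCD and 30.2, 12.1, 9.20, 8.75 and 12.6 FPKM on HFD (log2 fold change −2.01 ± 0.31, adjusted p = 0.00186), while Nr1h4, which encodes the bile acid receptor FXR, rose (log2 fold change 0.98 ± 0.15, adjusted p = 0.00147). Abcb11, the bile salt export pump, was at 191, 212, 158 and 205 FPKM on NCD and 82.2, 90.4, 86.0, 73.1 and 94.6 FPKM on HFD (log2 fold change −1.15 ± 0.10, adjusted p = 0.000102). None of these 4 genes overlapped between diets. Cyp8b1, which sets the share of cholic acid, was at 308, 295, 117 and 238 FPKM on NCD and 331, 249, 245, 415 and 361 FPKM on HFD with overlapping groups (log2 fold change 0.48 ± 0.29, adjusted p = 0.256). Of 20 tested genes of this group 3 rose and 4 fell, where 13.2% of all genes were called higher and 12.1% lower. The number of falls was 2 without any of mice 154, 155, 164, 180 or 183 and 6 without mouse 182.

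Acute phase genes, which the liver secretes in inflammation, rose in 13 of 24 tested cases and fell in 4 (median 0.55), and without mouse 182 the number of rises was 14. The shares over all genes were 13.2% higher and 12.1% lower. Saa1, serum amyloid A1, was at 5.05, 5.45, 12.0 and 4.14 FPKM on NCD and 59.9, 38.8, 69.7, 57.5 and 42.9 FPKM on HFD (log2 fold change 2.91 ± 0.27, adjusted p = 0.00015). Lcn2, the iron-siderophore binding protein lipocalin 2, was at 0.415, 0.468, 4.38 and 0.495 FPKM on NCD and 11.7, 9.29, 15.6, 14.3 and 9.54 FPKM on HFD (log2 fold change 2.67 ± 0.38, adjusted p = 0.00123), and mouse 182 was the highest NCD mouse in both. No mouse overlapped between diets in either gene. Haptoglobin (Hp, log2 fold change 0.62 ± 0.10, adjusted p = 0.00213), Serpina3n (log2 fold change 1.05 ± 0.10, adjusted p = 0.000145) and the metalloreductase gene Steap4 (log2 fold change 1.06 ± 0.09, adjusted p = 0.000119) rose as well. The 3 fibrinogen chain genes Fga (−0.60), Fgb (−0.45) and Fgg (−0.45) and serum amyloid P, Apcs (−0.70), were the genes that fell. Saa1 and Saa2 are near-identical, so that reads may be split between them, and Crp was not called (adjusted p = 0.968).

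Genes of glucose handling and insulin action were called in 17 of 22 cases, 9 higher and 8 lower (median 0.22), and without mouse 182 the number of falls was 7. The shares over all genes were 13.2% higher and 12.1% lower. Gys2, glycogen synthase, rose (log2 fold change 0.90 ± 0.18, adjusted p = 0.00625), as did Fbp1 (log2 fold change 0.63 ± 0.08, adjusted p = 0.000833) and Pcx (log2 fold change 0.69 ± 0.13, adjusted p = 0.00469) of gluconeogenesis. Pck1, the PEP carboxykinase of gluconeogenesis, was at 1844, 1884, 1102 and 1824 FPKM on NCD and 968, 652, 850.1, 662 and 615 FPKM on HFD (log2 fold change −1.14 ± 0.19, adjusted p = 0.00303), with no overlap. Igfbp1, an insulin-repressed binding protein gene, was at 84.0, 113, 194 and 96.7 FPKM on NCD and 50.4, 31.0, 30.3, 36.5 and 33.9 FPKM on HFD (log2 fold change −1.66 ± 0.24, adjusted p = 0.00119), and Igfbp2 fell in the same way (log2 fold change −1.58 ± 0.13, adjusted p = 6.71e-05). The pseudokinase gene Trib3 fell (log2 fold change −1.56 ± 0.13, adjusted p = 6.75e-05). G6pc, glucose-6-phosphatase, was at 313, 385, 176 and 228 FPKM on NCD and 306, 247, 212, 176 and 371 FPKM on HFD and was not called (log2 fold change −0.06 ± 0.27, adjusted p = 0.902).

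Markers of other liver cells were examined beside these groups. The shares of genes called over all genes were 13.2% higher and 12.1% lower. Of 12 tested macrophage markers 2 rose, 1 when any mouse but 165 or 182 was left out, and of the lymphocyte, neutrophil and stellate cell markers tested, 3, 3 and 10, none was called. Leaving out single mice gave 1 lymphocyte marker lower without mouse 164, 1 neutrophil marker higher without mouse 182 and 1 stellate cell marker lower without mouse 155. Without mouse 182, 5 of 10 stellate cell and fibroblast markers were higher on HFD, and their summed level was 40.3 to 47.7 FPKM in the 3 other NCD mice, 148 FPKM in mouse 182 and 50.5 to 84.4 FPKM on HFD. The summed macrophage markers were 81.4 to 100.3 FPKM in those 3 mice, 163 FPKM in mouse 182 and 93.5 to 131 FPKM on HFD. Of 9 endothelial markers 1 fell, and the number was 0 to 3 when single mice were left out, with 3 without mouse 155. Of 6 tested cholangiocyte markers Sox9 fell. Hepatocyte markers summed to 60231 to 68841 FPKM in those 3 NCD mice, 71831 FPKM in mouse 182 and 46196 to 52217 FPKM on HFD, with Alb lower on HFD (log2 fold change −0.61 ± 0.12, adjusted p = 0.00704). Of the 8 hepatocyte markers 1 rose and 2 fell, and without mouse 182 none rose and 4 fell, the rise being lost without any mouse but 155. Of 5 erythroid markers 1 rose and 1 fell, the fall being lost without mouse 155, 161, 162 or 180. Of 3 tested adipocyte markers Cfd and Car3 rose, both of which were expressed in livers where Adipoq, Lep, Retn and Plin1 were at most at 0.0817 FPKM, other than in mouse 155 and for Retn in mouse 162 (0.199 FPKM). Of 2 tested pancreas markers neither was called, with a summed level of 60.6 FPKM in mouse 155 and at most 10.4 FPKM in the other HFD mice. The part of these markers in the diet effect was not tested.

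The Mlkl Adi-KO livers gave the same comparison in other mice. There 1563 of 13149 genes were higher and 1356 lower on HFD. Of the 3374 genes called in WT liver, 3334 were also tested there, 3211 had the same direction and 1935 were called in the same direction. The difference between the genotypes in the diet effect, tested as an interaction over all 18 livers, was called for 2 of 13248 genes (0.0151%), and 811 genes had an unadjusted p under 0.05. None of the genes in the lists above was called. Set side by side, Sqle had a log2 fold change of −3.31 in WT and −2.62 in Mlkl Adi-KO liver, Nr1d1 had −2.45 and −1.93, and Per2 1.98 and 1.94.

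Of the genes whose diet effect differed, Gm5540, annotated in the files as a processed pseudogene and outside the rule for named genes, is described. Gm5540 was at 12.6, 10.9, 24.0 and 11.8 FPKM on NCD and 0.756, 0.664, 0.332, 9.84 and 0.414 FPKM on HFD in WT liver and at 0.507, 0.684, 0.587 and 0.482 and 8.27, 8.37, 9.57, 10.01 and 8.998 FPKM in Mlkl Adi-KO liver (interaction −5.42, adjusted p = 0.00217). WT HFD mouse 162 was at the level of the WT NCD mice in Gm5540.

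**Figure D5:**
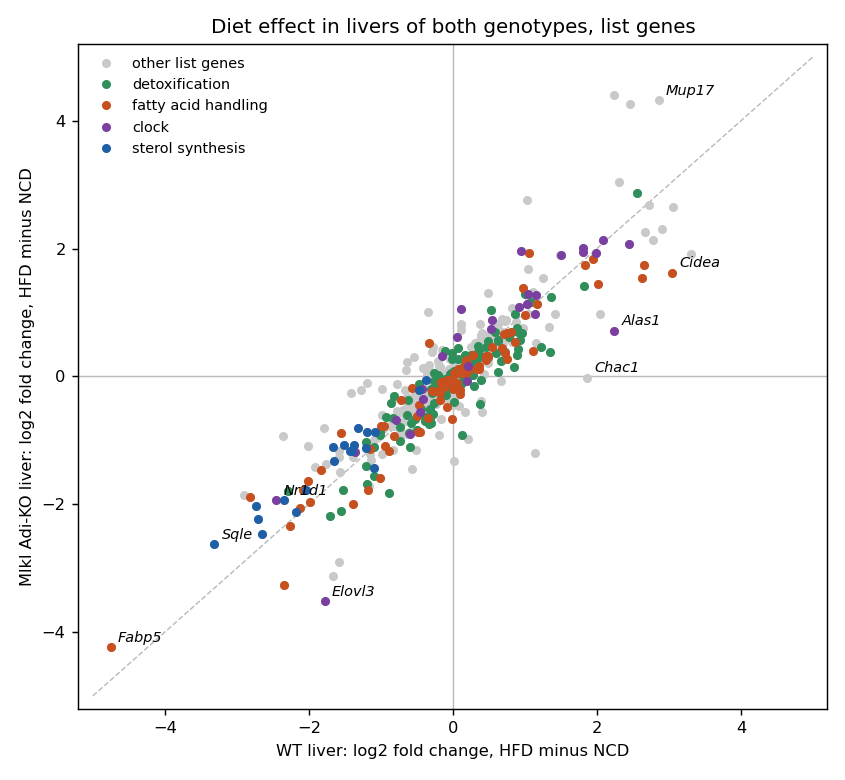
Diet effect in WT and Mlkl Adi-KO liver for the genes of the lists. Each point is 1 gene, the axes are the log2 fold changes (HFD minus NCD, on log2(FPKM + 1)) in WT (horizontal) and Mlkl Adi-KO (vertical) liver, and the dashed line marks equal effects. Sterol synthesis genes (blue) lie at the lower left, from Sqle at −3.31 and −2.62 upward, and Fabp5 is the lowest point in both.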

How the data were processed

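Total RNA of liver was sequenced with 1 library per mouse. Per the study's methods, the authors enriched poly(A) RNA, trimmed reads with fastp, aligned them to mm39 with HISAT2, counted them per gene with featureCounts (version 1.5.0-p3 per the labels) and deposited FPKM for 56748 genes. The strand setting and the annotation release are not given in the sources used here. The authors also deposited read counts beside their own comparisons of genotypes. Liver counts served here to find the FPKM of 1 read, and the fold changes, p-values and pathway tables of those comparisons were not used. There were 90 columns of per-sample values that were not used.

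The 5 HFD and 4 NCD WT livers were compared with limma (version 3.58.1, R 4.3.3) on log2(FPKM + 1) with a mean-variance trend, over the 13330 genes with a mean of at least 0.5 FPKM in these livers. P-values were adjusted after Benjamini-Hochberg and the threshold was 0.05. Mlkl Adi-KO livers were fitted in the same way, and the difference of the diet effects as an interaction over 18 livers. FPKM times gene length and the library size found from those counts gave whole reads for 100% of values within 0.05 reads, and edgeR (4.0.16) and DESeq2 (1.42.0) on these reads were alternatives to the FPKM test, although the study's methods name them. Other alternatives were a pseudocount of 0.1, other filters, a TPM scale, no trend, all 18 livers in the fit, a minimum change and leaving out each mouse. The steps were tested on simulated data. These had the same setting of spread between mice for every gene and no mouse apart from its group. They therefore do not cover a library that lies apart from its group. Of the symbols, 959 were shared by several gene identifiers, which were kept apart.

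Genes were named if they belonged to a list written from general knowledge, with each mouse's value for a fixed set of well-known members and the largest changes of a list, or if they were among the 8 largest rises or falls of annotated genes with an adjusted p under 0.05. The lists, the genes named and the livers compared were chosen with earlier results of these data known. Promoters were those of RefSeq in GRCm38.p6, searched for letters only, and gene coordinates were those of the deposited table in GRCm39. Some genes of the lists are counted but not reported by name here.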

Additional observations from a re-analysis of the deposited data

Results flagged for a closer look

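In 71 genes examined mouse by mouse, the 2 diet groups made 142 groups of 4 or 5 mice, and in 14 of them 1 mouse lay far from the rest of its group (Dixon's 95% limit). In independent groups chance alone gives about 1 in 20. These groups share the same mice, and their genes were chosen with earlier results of these data known. That rate is therefore no measure for the 14. In 10 of the 14 it was NCD mouse 182. That mouse was the highest of its group in Fgf21 (71.9 FPKM), Gsta1 (45.5 FPKM), Gstm3 (675 FPKM), Hmgcs1 (178 FPKM), Lcn2 (4.38 FPKM), Lpl (39.3 FPKM) and Mt1 (82.5 FPKM), and the lowest in Cyp2e1 (1366 FPKM), Elovl3 (2.93 FPKM) and Mlxipl (51.5 FPKM). The other 4 were Chrna4 (0.881 FPKM) and Cyp51 (19.0 FPKM), both in HFD mouse 164, Nr0b2 (30.2 FPKM) in HFD mouse 154, and Gstm1 (2168 FPKM) in NCD mouse 180.

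The diet effect differed between WT and Mlkl Adi-KO liver by the interaction test for the processed pseudogene Gm5540, with a difference of −5.42 on the log2 scale. The Gm5540 levels followed no single grouping by diet or genotype, since they were high in WT mice on NCD, in Mlkl Adi-KO mice on HFD and in 1 WT mouse on HFD.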

How the results depend on the processing

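The counts of 1755 rises and 1619 falls in WT liver were within 1.5 times of the values given by a pseudocount of 0.1, a mean of at least 1 FPKM, no filter, the TPM scale, edgeR, DESeq2, no trend and all 18 livers, which ranged from 1429 to 2057 rises and 1289 to 1983 falls. The TPM scale moved the split to 2057 rises and 1289 falls. With a minimum change of 1 on the log2 scale the counts were 215 and 169 in WT and 178 and 171 in Mlkl Adi-KO liver. Leaving out 1 mouse at a time gave 1385 to 1859 rises and 1265 to 1914 falls in WT and 1208 to 1512 rises and 994 to 1287 falls in Mlkl Adi-KO liver. The diet effect differed between genotypes for 2 genes, 4 with a mean of at least 1 FPKM and 58 with DESeq2, and for 2 to 5 when single mice were left out, with 5 without WT NCD mouse 165. The cause was not tested. The number of sterol synthesis genes that fell was 19 under these settings and when each mouse was left out, and 18 with the minimum change. Of 181 tested genes named here, no filter ended the calls of Alb, Cdkn1a, Cyp1a2, Cyp3a11, Cyp4a12a, Dbp, Ddit3, Elovl6, Fasn, Nfil3 and Ppara, the TPM scale those of Cyp3a11, Ddit3 and Etfa, edgeR that of Mt1, DESeq2 that of Cideb, and all 18 livers in the fit those of Abca1, Cideb, Elovl6, Fasn, G0s2 and Nfil3. Calls were added for Fos, Gstp1 and Nr1i2 under several of these settings, for Elovl3 by edgeR and DESeq2, for Gstm3 by edgeR and all 18 livers, for Cyp2e1 by DESeq2 and all 18 livers, and for Fads1 and Tsc22d3 by DESeq2. Leaving out single mice ended 0 to 12 of the calls. Cyp2a4 and Hsd3b5 were not called with all mice (log2 fold changes −0.81 and 0.23), and without mouse 182 they were called in the opposite direction (1.08 and −1.36). No paired analysis was possible because the HFD and NCD livers came from different mice, and a mouse number links only the liver and the visWAT of 1 animal. With 4 and 5 mice, changes that are small against the spread between mice could be missed, and the FPKM scale does not show a change in total RNA per cell.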

Other observations

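Genes of endoplasmic reticulum stress were lower on HFD in 10 of 16 tested cases and higher in 2, and without mouse 182 in 11 and 2 of 15. Over all genes 12.1% were called lower and 13.2% higher. The chaperone gene Hspa5 (BiP) was at 188, 252, 189.6 and 261 FPKM on NCD and 150.2, 132, 120.0, 133 and 113 FPKM on HFD (log2 fold change −0.77 ± 0.12, adjusted p = 0.00234). Manf, a secreted stress protein gene, was at 23.4, 36.3, 22.8 and 33.1 FPKM on NCD and 14.2, 12.5, 9.52, 11.4 and 11.4 FPKM on HFD (log2 fold change −1.20 ± 0.16, adjusted p = 0.000692). In both the HFD mice were below all NCD mice. The transcription factor genes Atf4 (log2 fold change −0.54 ± 0.10, adjusted p = 0.0052) and Ddit3 (log2 fold change −0.82 ± 0.24, adjusted p = 0.0361) fell too, the Ddit3 call being lost without mouse 154, 155, 161, 162, 164 or 180. Xbp1, which carries the unfolded protein signal, rose (log2 fold change 0.55 ± 0.09, adjusted p = 0.00291), as did Chac1, a glutathione degrading enzyme gene, at 2.14, 1.27, 1.80 and 1.96 FPKM on NCD and 8.26, 8.67, 11.1, 16.0 and 4.71 FPKM on HFD (log2 fold change 1.86 ± 0.27, adjusted p = 0.00119). In Mlkl Adi-KO liver the Chac1 log2 fold change was −0.02, and the difference between genotypes did not pass the test (adjusted p = 0.203).

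Of 15 tested immediate early genes, which respond quickly to growth factors and handling, 7 fell and none rose. Over all genes 12.1% were called lower and 13.2% higher. Egr1 was at 3.69, 13.0, 14.5 and 16.6 FPKM on NCD and 1.85, 1.17, 1.08, 1.44 and 0.877 FPKM on HFD (log2 fold change −2.36 ± 0.35, adjusted p = 0.00146). Junb was at 21.7, 21.5, 31.7 and 24.9 FPKM on NCD and 8.38, 6.44, 5.99, 6.98 and 4.89 FPKM on HFD (log2 fold change −1.78 ± 0.15, adjusted p = 8.23e-05). No mouse overlapped in either gene, whereas Fos was at 0.540, 10.4, 4.27 and 1.37 FPKM on NCD and 0.452, 0.658, 0.347, 0.586 and 0.209 FPKM on HFD and was not called (adjusted p = 0.0646). In Mlkl Adi-KO liver 2 of the 15 fell, where 10.3% of all genes tested were called lower. Of 11 tested glucocorticoid responsive genes 3 rose and 4 fell, and without mouse 182 the number of falls was 6. Fkbp5, a cochaperone of the glucocorticoid receptor, was at 7.67, 10.3, 7.27 and 7.78 FPKM on NCD and 20.0, 15.4, 20.3, 20.9 and 13.8 FPKM on HFD (log2 fold change 1.04 ± 0.14, adjusted p = 0.000904), with no overlap, and Tat, tyrosine aminotransferase, was at 1256, 1632, 1138 and 1890.1 FPKM on NCD and 634, 423, 537, 425 and 429 FPKM on HFD (log2 fold change −1.58 ± 0.18, adjusted p = 0.000367), also with no overlap.

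Among genes of the zones of the liver lobule, 5 of 14 pericentral genes rose and 2 fell, and 1 of 13 periportal genes rose and 3 fell, where 13.2% of all genes were called higher and 12.1% lower. Without mouse 182 these counts were 7 and 2 pericentral and 2 and 4 periportal genes. The pericentral falls were 0 without mouse 162, 164 or 180 and 1 without mouse 154, 155, 161 or 183. Lect2 (log2 fold change 0.74 ± 0.09, adjusted p = 0.00042) and Gulo (log2 fold change 0.63 ± 0.08, adjusted p = 0.000515) were among the pericentral rises, of which 3 were left without any of mice 155, 161, 162, 164 or 165, and the histidine degrading enzyme gene Hal was among the periportal falls (log2 fold change −0.70 ± 0.11, adjusted p = 0.00221).

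Genes that differ between male and female liver gave values that turned on mouse 182. The median log2 fold change of 18 male-biased genes was 0.76 with that mouse, with 1 rise and 2 falls, 1 without any of mice 161, 162, 164, 165, 180 or 183, and −0.13 without it, with 3 rises and 5 falls. Over all genes, 13.2% were called higher and 12.1% lower with mouse 182, and 14.0% and 14.4% without it. Selenbp2 rose with all mice, at 21.1, 37.2, 15.9 and 24.0 FPKM on NCD and 252, 158, 39.2, 150.4 and 82.6 FPKM on HFD (log2 fold change 2.24 ± 0.49, adjusted p = 0.00949). Hsd3b5 was at 88.6, 103, 0.125 and 83.5 FPKM on NCD and 44.6, 43.3, 31.6, 49.0 and 17.6 FPKM on HFD, with an adjusted p of 0.915 over all mice and 0.0097 without mouse 182. Of 10 tested female-biased genes 2 rose, Acot3 and Fmo2, 1 of them without mouse 180 or 183, and without mouse 182 4 of 7 rose and 1 fell. Members of the Mup family are near-identical, so that their values are uncertain. Summed over the list, male-biased genes were at 1073 FPKM in mouse 182, 14174 to 15832 FPKM in the other NCD mice and 13366 to 18504 FPKM on HFD.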
